A study of Mus musculus with 14 samples.

Results

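The genes described here are 34 listed symbols of sterol and fatty acid metabolism: the SREBP regulators around Srebf1, the enzymes that make cholesterol and fatty acids, and 4 genes of oxysterol hydroxylation and sterol export. For each symbol, the value is that of its brightest probe set on average, among those that the platform annotation pairs with that symbol alone. All 34 had such a probe set among 18193 symbols, and all 34 were among the 10295 genes tested, those above a log2 level of 4 (the dim level) in at least 3 arrays. The list was not drawn up from a threshold on these values, but it was proposed when earlier results of these data were known.

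The arrays measured neocortical progenitors of CD1 mouse embryos. A DNA construct, Fezf2GFP or CtrlGFP, was electroporated into the cells lining the lateral ventricle in utero at E14.5, and labelled cells were purified by FACS after 24 h or 48 h. Each vector has 3 arrays at 24 h and 4 arrays at 48 h, which makes 4 groups. Fezf2 directs the fate of corticospinal neurons, and the study asks how its overexpression alters progenitors that at this age mostly form callosal neurons of the upper layers. The labels do not give the promoter of the construct, the number of embryos behind an array, or whether replicate arrays are separate litters. The p-values therefore measure only the spread between these samples, which may be technical.

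Cholesterol and fatty acid synthesis are under the control of the SREBP transcription factors, which are made as membrane proteins of the endoplasmic reticulum. When sterols are scarce, the escort protein SCAP carries them to the Golgi, where proteases release the active factor; when sterols are plentiful, INSIG proteins hold the complex back. Srebf1 encodes the forms that act mainly on fatty acid genes, and its transcription is raised by the oxysterol receptors LXR. Srebf2 encodes the form that acts mainly on cholesterol genes. The embryonic brain comes to rely on its own cholesterol synthesis, since a forming blood-brain barrier keeps out lipoprotein cholesterol.

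Arrays of a group correlated at 0.942 to 0.993. CtrlGFP 24 h replicate 1 and CtrlGFP 48 h replicate 2 had the highest medians over all probe sets (3.50 and 3.45, against 3.26 to 3.31 in the other arrays), and their deviations from their groups correlated at 0.593. The probe set of Fezf2 itself went against the labels, with levels of 10.82 to 11.54 in the CtrlGFP arrays and 9.31 to 9.52 in the arrays labelled Fezf2GFP at 24 h, and 9.63 to 10.65 against 8.67 to 10.25 at 48 h. The labels do not say whether it lies in the stretch that the construct carries, so every direction between vectors rests on the labels. All 11 radial glia and dorsal telencephalon markers measured, all 6 of intermediate progenitors and all 9 of cortical neurons lay above the dim level in at least 3 arrays, as did 1 of 10 of microglia, 2 of 8 of endothelium, 2 of 8 of pericytes and meninges and 1 of 3 of erythroid cells. Among the markers below it were Cx3cr1, Csf1r and P2ry12 of microglia, Pecam1 and Cdh5 of endothelium, and Col1a1 and Dcn of meninges.

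Srebf1 fell in the arrays labelled Fezf2GFP at both times, and it was the one member that did so. Its level was 10.58, 10.59 and 10.40 in the CtrlGFP arrays at 24 h, and 7.54, 7.81 and 8.10 in the Fezf2GFP arrays. At 48 h it was 9.75, 10.10, 10.27 and 9.29 with CtrlGFP, and 8.49, 8.43, 8.07 and 7.55 with Fezf2GFP. Every Fezf2GFP array lay below every CtrlGFP array, of either time. The log2 fold change of Srebf1 was -2.70 at 24 h (SE 0.28, 95% interval -3.32 to -2.09, limma adjusted p = 0.000568), which is 6.52-fold lower. At 48 h it was -1.72 (SE 0.25, interval -2.25 to -1.18, limma adjusted p = 0.00197), which is 3.29-fold lower. Both calls passed in 23 of 23 alternative fits, with values from -2.85 to -2.57 and from -1.90 to -1.52.

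The order of the 4 group means of Srebf1 was CtrlGFP 24 h at 10.52 ± 0.10 (SD, n = 3), CtrlGFP 48 h at 9.85 ± 0.43 (SD, n = 4), Fezf2GFP 48 h at 8.13 ± 0.43 (SD, n = 4) and Fezf2GFP 24 h at 7.82 ± 0.28 (SD, n = 3). The 48 h arrays with CtrlGFP all lay below those at 24 h, but the difference of -0.67 did not pass (SE 0.27, limma adjusted p = 0.130). With Fezf2GFP the times overlapped, at 0.32 (SE 0.27, limma adjusted p = 0.538). The vector difference was smaller at 48 h by 0.99, and this change between times did not pass either (limma adjusted p = 0.892). Srebf1 was measured by 1 probe set, whose name ends in the Affymetrix suffix a_at. That suffix marks probes shared by transcripts of 1 gene, so its transcripts are not told apart here.

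RefSeq gives 3 start sites of Srebf1 on GRCm38.p6, all on the minus strand of chromosome 11. The 250 bases before each are shown because Srebf1 is the regulator that changed, and no probe set separates the starts. They span chr11:60222582-60222831, chr11:60220628-60220877 and chr11:60210472-60210721, in that order. Capitals mark CCAAT (or ATTGG on the other strand) and GGGCGG (or CCGCCC), the letters of boxes bound by NF-Y and Sp1, factors with which SREBPs act.
Srebf1 start 1: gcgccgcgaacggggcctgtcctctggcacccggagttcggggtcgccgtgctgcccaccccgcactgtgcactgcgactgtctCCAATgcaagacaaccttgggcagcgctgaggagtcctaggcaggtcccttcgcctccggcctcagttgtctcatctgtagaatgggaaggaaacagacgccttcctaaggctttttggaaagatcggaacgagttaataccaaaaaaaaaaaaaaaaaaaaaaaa
Srebf1 start 2: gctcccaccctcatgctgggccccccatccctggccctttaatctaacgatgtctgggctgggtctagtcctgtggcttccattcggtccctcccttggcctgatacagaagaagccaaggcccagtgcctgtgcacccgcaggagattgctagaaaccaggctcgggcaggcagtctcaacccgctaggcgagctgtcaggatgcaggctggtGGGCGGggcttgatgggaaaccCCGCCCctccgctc
Srebf1 start 3: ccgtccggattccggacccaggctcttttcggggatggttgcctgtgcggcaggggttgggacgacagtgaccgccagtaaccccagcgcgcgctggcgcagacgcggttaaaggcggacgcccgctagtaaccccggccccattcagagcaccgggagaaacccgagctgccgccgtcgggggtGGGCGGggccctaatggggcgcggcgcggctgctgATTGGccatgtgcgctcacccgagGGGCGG
The first window holds 1 CCAAT and no GC box, the second 2 GC boxes, and the third 1 CCAAT on the minus strand and 2 GC boxes. None of the windows holds TCACNCCAC, a form of the sterol regulatory element, on either strand, which says only that these letters are not in these windows.

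The other genes of SREBP control did not pass in either comparison of vectors. Srebf2 had levels of 7.78, 7.80 and 7.80 with CtrlGFP at 24 h and 8.35, 8.63 and 7.47 with Fezf2GFP. At 48 h its levels were 7.96, 7.38, 8.11 and 7.65 with CtrlGFP and 7.60, 8.20, 8.14 and 9.49 with Fezf2GFP. The groups of Srebf2 overlapped at both times, with log2 fold changes of 0.36 (SE 0.41, limma adjusted p = 0.794) and 0.59 (SE 0.35, limma adjusted p = 0.492).

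Insig1, the sterol-sensitive retention factor and itself an SREBP target, had levels of 9.70, 10.31 and 10.38 with CtrlGFP at 24 h and 10.32, 10.05 and 10.19 with Fezf2GFP. At 48 h the levels of Insig1 were 10.96, 10.62, 11.07 and 10.32 with CtrlGFP and 9.96, 9.73, 10.75 and 10.44 with Fezf2GFP. The groups overlapped at both times. Its log2 fold changes were 0.06 (interval -0.55 to 0.68, limma adjusted p = 0.953) and -0.52 (interval -1.06 to 0.01, limma adjusted p = 0.339). Scap had log2 fold changes of -0.04 and 0.46, and its 48 h arrays did not overlap (10.00 to 10.25 with CtrlGFP, 10.31 to 10.91 with Fezf2GFP), although the fit did not pass (limma adjusted p = 0.144).

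**Figure D1:**
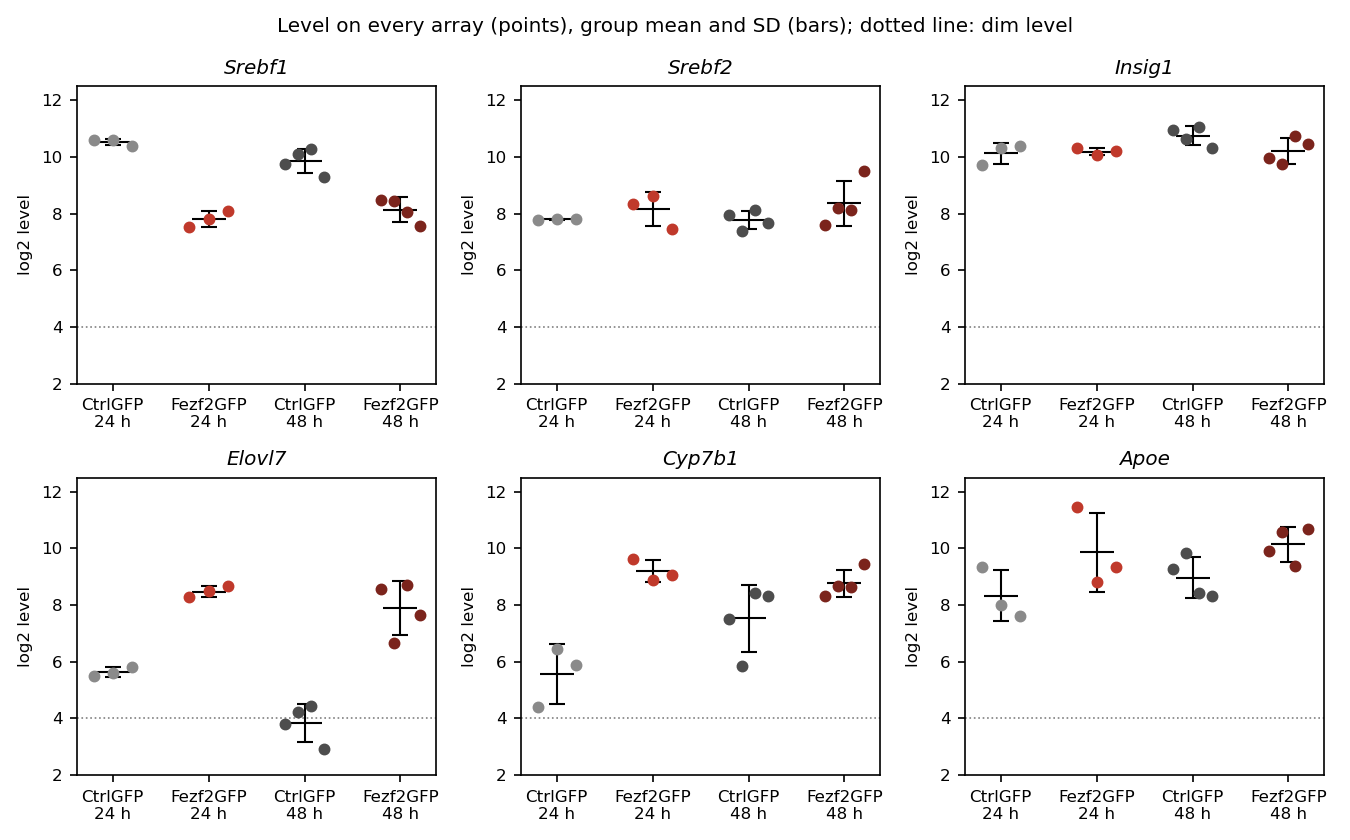
Log2 level of 6 members on each of the 14 arrays (points), by vector and time, with the group mean and SD as bars and the dim level of 4 dotted. Srebf1 was lower and Elovl7 higher on every Fezf2GFP array than on any CtrlGFP array of the same time; Cyp7b1 was so at 24 h, while Srebf2, Insig1 and Apoe overlapped at 48 h.

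None of the 16 cholesterol synthesis enzymes passed between vectors at either time. At 24 h their log2 fold changes lay between -0.40 and 0.84 with a median of 0.11, and 13 of 16 were above 0. At 48 h they lay between -0.19 and 0.49 with a median of 0.09, and 12 of 16 were above 0. Over all genes tested, the median was 0.06 at both times, and 56.4% and 57.3% of genes were above 0. In limma 2 of 16 had an unadjusted p under 0.05 at 24 h (Lss and Cyp51) and 0 at 48 h. Of all genes tested, 0.806% passed as higher and 0.253% as lower at 24 h, and 2.70% and 0.427% at 48 h. So few of all genes passed that 0 of 16 says little about these enzymes. The 95% intervals of these enzymes reached from -1.47 to 1.68 at 24 h and from -0.87 to 1.22 at 48 h. A miss of the threshold does not show that they did not differ.

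The first steps, from acetyl-CoA to farnesyl diphosphate, are covered by 6 members: Hmgcs1, which makes HMG-CoA, the kinases Mvk and Pmvk, the decarboxylase Mvd, the isomerase Idi1 and the prenyl synthase Fdps. Their log2 fold changes lay between -0.40 (Mvk) and 0.28 (Fdps) at 24 h and between -0.16 and 0.17 at 48 h, with 3 above 0 and 3 below 0 at each time. Fdps alone did not overlap between vectors at 24 h, with levels of 8.27 to 8.62 against 8.63 to 8.85, and none of the 6 was apart at 48 h. Hmgcs1 is shown with its promoter because it is a textbook SREBP target, and its 24 h levels were 14.01, 14.26 and 13.90 with CtrlGFP and 14.19, 14.11 and 14.14 with Fezf2GFP. These overlapped, and the log2 fold change was 0.09; its 4 other probe sets gave 0.25 to 1.34 at 24 h and -0.59 to 0.25 at 48 h, none of them tested singly. The 250 bases before its start lie at chr13:119690101-119690350 on the plus strand of GRCm38.p6 (RefSeq), with TCACNCCAC, CCAAT and GGGCGG of either strand in capitals.
Hmgcs1: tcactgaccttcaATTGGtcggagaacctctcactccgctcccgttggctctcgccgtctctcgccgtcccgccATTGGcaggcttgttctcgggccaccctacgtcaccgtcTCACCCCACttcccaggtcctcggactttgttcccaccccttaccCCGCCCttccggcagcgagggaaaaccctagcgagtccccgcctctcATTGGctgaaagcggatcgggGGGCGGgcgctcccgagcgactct
This window was the only one of 34 member windows that held TCACNCCAC, at bases -137 to -129 before the start; it also held 3 CCAAT boxes on the minus strand and 2 GC boxes. Among all 32851 windows of this length in the RefSeq table, 1.05% held TCACNCCAC on either strand. Its 48 h log2 fold change was 0.14, with overlapping arrays.

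The later steps, from farnesyl diphosphate through squalene to cholesterol, are covered by 10 members, and their 24 h log2 fold changes were all above 0, from 0.04 to 0.84 with a median of 0.26. At 48 h, 9 of 10 were above 0, with a median of 0.10. Arrays of the vectors did not overlap for 4 of the 10 at 24 h, where 19.6% of all genes were apart: Sqle, the epoxidase of squalene (10.50 to 10.97 with CtrlGFP, 11.14 to 11.33 with Fezf2GFP), Lss, which closes the sterol rings, Cyp51, the demethylase of lanosterol, and Sc5d, a desaturase of late sterols. Sc5d stood at 7.73, 9.12 and 9.07 with CtrlGFP and 9.40, 9.38 and 9.67 with Fezf2GFP, and its lowest value was that of CtrlGFP 24 h replicate 1, one of the arrays that stand apart. The 24 h log2 fold changes were 0.43 for Sqle, 0.66 for Lss, 0.72 for Cyp51 and 0.84 for Sc5d, with limma adjusted p from 0.410 to 0.668. At 48 h none of the 10 was apart, and Cyp51 had the opposite sign (-0.19, limma adjusted p = 0.777). At 24 h, other probe sets above the dim level gave -0.09 for Lss, 0.62 and 0.16 for Cyp51 and 0.34 for Sc5d. At 48 h these gave -0.08 for Lss, 0.04 and 0.35 for Cyp51 and -0.02 for Sc5d. None of them was tested singly. The values of the others, Fdft1, Tm7sf2, Nsdhl, Hsd17b7, Ebp and Dhcr7, overlapped at both times.

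**Figure D2:**
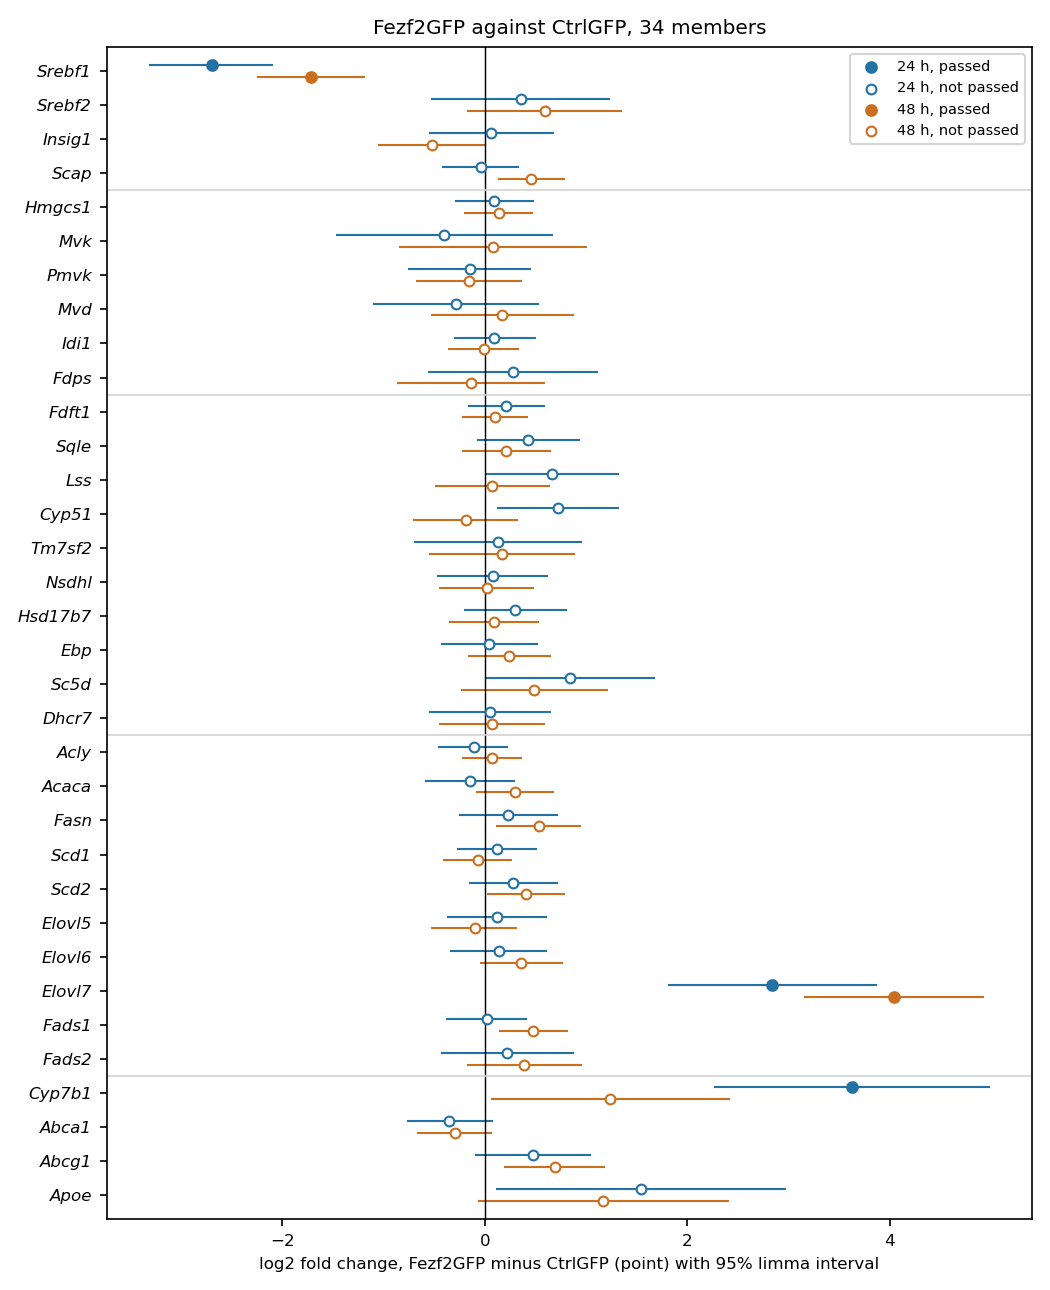
Log2 fold change of each of the 34 members, Fezf2GFP minus CtrlGFP, at 24 h (blue) and 48 h (orange), with 95% limma intervals; filled points passed, and grey lines part the roles. Srebf1 stands to the left and Elovl7 to the right at both times, Cyp7b1 to the right at 24 h, and the 16 sterol synthesis enzymes lie between -0.40 and 0.84.

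Among the 10 members that make, lengthen and desaturate fatty acids, Elovl7 alone passed between vectors, and it rose at both times. Elovl7 is an elongase of very long chain fatty acids. At 24 h its level was 5.48, 5.61 and 5.82 with CtrlGFP and 8.29, 8.48 and 8.66 with Fezf2GFP. At 48 h it was 3.80, 4.23, 4.42 and 2.93 with CtrlGFP, where 2 of 4 arrays lay below the dim level, and 8.55, 6.65, 8.69 and 7.66 with Fezf2GFP. No array overlapped at either time. The log2 fold change of Elovl7 was 2.84 at 24 h (SE 0.48, limma adjusted p = 0.0106, 7.16-fold) and 4.04 at 48 h (SE 0.41, limma adjusted p = 0.000170).

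All 6 probe sets of Elovl7 were higher with Fezf2GFP at both times, by 0.90 to 3.92 at 24 h and 0.73 to 4.04 at 48 h. The one used carries the suffix that marks probes which can match other transcripts. With the mean of its probe sets, the value at 48 h became 2.39 and still passed. The call at 24 h ended without CtrlGFP 24 h replicate 2 (limma adjusted p = 0.0509) and without both arrays that stand apart (0.0510). At 48 h it passed in 23 of 23 alternative fits.

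The promoter of Elovl7 lies at chr13:108214154-108214403 on the plus strand of GRCm38.p6 (RefSeq), and is shown because the gene rose while Srebf1 fell. Capitals mark CACCCCAC, the core of the sterol regulatory element, and GGGCGG, each on either strand.
Elovl7: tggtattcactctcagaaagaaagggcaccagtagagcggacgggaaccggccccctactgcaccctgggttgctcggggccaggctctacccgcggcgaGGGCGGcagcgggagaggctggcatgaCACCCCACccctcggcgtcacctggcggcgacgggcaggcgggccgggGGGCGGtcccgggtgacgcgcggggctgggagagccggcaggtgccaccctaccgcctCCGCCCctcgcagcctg
CACCCCAC was found in 2 of the 34 member windows, those of Elovl7 and Hmgcs1, where it lies inside TCACNCCAC, and in 2.58% of all windows. In all, 26 of the 34 members had a RefSeq promoter entry, with 34 windows. CCAAT was in 19 of the 34 windows against 33.8% of all, GGGCGG in 22 against 32.7%, and the E-box CACGTG in 7 against 6.02%. Motifs were searched on both strands, the windows printed were chosen after values and matches were seen, and a match describes letters and not a bound site.

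The other 9 fatty acid members had log2 fold changes between -0.15 and 0.28 at 24 h. They were Acly, which makes cytosolic acetyl-CoA, Acaca, the carboxylase that commits it, the synthase Fasn, the desaturases Scd1, Scd2, Fads1 and Fads2, and the elongases Elovl5 and Elovl6. That range is of the probe sets used. Their other probe sets above the dim level gave -0.66 to 0.94 at 24 h, both ends from Scd2, and 0.82 for Elovl5. None of these was tested singly. At 48 h Fasn stood at 0.53 (limma adjusted p = 0.198), Fads1 at 0.48 (0.142) and Scd2 at 0.41 (0.289), all 3 at an unadjusted p under 0.05. At 48 h Fads1 did not overlap between vectors, at 10.44 to 10.96 with CtrlGFP and 11.05 to 11.52 with Fezf2GFP. Scd2 (14.15 to 14.75 against 14.82 to 15.26) and Elovl6 (9.81 to 10.54 against 10.57 to 10.89) were also apart at 48 h. Of all genes, 9.07% were apart at that time. Other probe sets above the dim level gave -0.12 for Fads1 at 48 h, 0.21 and 0.32 for Scd2 and 0.21 for Elovl6, not tested singly. Acaca and Acly were the only 2 of the 10 below 0 at 24 h, at -0.15 and -0.11. Scd1 had values of 4.70 to 4.71 on most arrays, just above the dim level, so its lack of spread describes little of its expression. Its second probe set had group means of 2.91 to 5.02. That one gave 0.59 and 0.91 between vectors, and 1.20 with CtrlGFP and 1.51 with Fezf2GFP between times. Between times, Scd1 passed in 1 of 22 alternative fits with each vector.

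Among the 4 members of oxysterol hydroxylation and sterol efflux, Cyp7b1 rose at 24 h in arrays labelled Fezf2GFP. Cyp7b1 hydroxylates oxysterols and some neurosteroids. At 24 h its level was 4.39, 6.43 and 5.87 with CtrlGFP and 9.62, 8.89 and 9.06 with Fezf2GFP, with no overlap. That is a change of 3.63 on the log2 scale (SE 0.63, limma adjusted p = 0.0126, 12.4-fold). At 48 h the levels of Cyp7b1 were 7.52, 5.86, 8.41 and 8.33 with CtrlGFP and 8.33, 8.66, 8.63 and 9.45 with Fezf2GFP. These groups overlapped, and the difference of 1.24 did not pass (SE 0.55, limma adjusted p = 0.297).

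The change of the Cyp7b1 difference between times was -2.39 and did not pass (limma adjusted p = 0.819). Its 2 probe sets above the dim level had the same sign, with 2.77 at 24 h and 0.95 at 48 h for the one not used, and the mean with the dim one was 2.11 at 24 h, which passed. The 24 h call ended without Fezf2GFP 24 h replicate 1 (limma adjusted p = 0.0728) and in a fit of only the groups compared (0.0567).

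Apoe, the lipoprotein that carries cholesterol in the brain, had levels of 9.35, 8.01 and 7.62 with CtrlGFP at 24 h and 11.45, 8.81 and 9.33 with Fezf2GFP. At 48 h Apoe was 9.28, 9.84, 8.43 and 8.31 with CtrlGFP and 9.91, 10.57, 9.38 and 10.69 with Fezf2GFP. The groups overlapped at both times, and the log2 fold changes of 1.54 (SE 0.66, limma adjusted p = 0.508) and 1.17 (SE 0.57, limma adjusted p = 0.365) did not pass. The sterol exporter Abcg1 stood at 0.48 and 0.69, and the exporter Abca1 at -0.35 and -0.30. Their 24 h arrays did not overlap, with Abcg1 at 8.33 to 8.63 against 8.77 to 9.10 and Abca1 at 11.39 to 11.74 against 11.10 to 11.33, and neither passed at either time.

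Counted over the whole list, 2 of 34 members rose and 1 fell at 24 h, where 0.806% of all genes tested rose and 0.253% fell. At 48 h 1 rose and 1 fell, against 2.70% and 0.427%. The member median was 0.12 at 24 h and 0.15 at 48 h. Arrays of the vectors did not overlap for 11 of 34 members at 24 h, against 19.6% of all genes, and for 6 of 34 at 48 h, against 9.07%. In limma no member passed the test of whether the vector difference changed between times, where 0.0971% of all genes passed, and 3 had an unadjusted p under 0.05: Srebf1, Cyp51 and Cyp7b1.

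Markers of other cells were set beside these differences. The summed level of the 10 measured astrocyte and oligodendrocyte markers lay at 11.72 to 11.91 with CtrlGFP and 12.39 to 12.56 with Fezf2GFP at 24 h, and at 10.62 to 11.33 and 11.39 to 11.68 at 48 h. The brightest of them at 24 h was Gja1, at 11.52 to 11.69 with CtrlGFP and 12.26 to 12.34 with Fezf2GFP. The next, Aldh1l1, lay at 8.08 to 8.53 and 7.98 to 8.98, so the 24 h sums mostly reflected Gja1. Of the 10 markers 6 were above the dim level, and Gfap, S100b, Sox10 and Pdgfra lay below it. At 24 h 0 of the 6 passed; at 48 h 2 of the 6 rose, where 2.70% of all genes did, while Olig1 and Olig2 had values of -1.46 and -1.40 that did not pass (limma adjusted p = 0.316 and 0.0799). The summed neuron markers were 15.85 to 16.33 and 16.35 to 16.43 at 24 h, and overlapped at 48 h. Of the progenitor markers 0 passed at 24 h, where 0.806% of all genes rose and 0.253% fell. At 48 h 2 of 11 of radial glia and dorsal telencephalon rose (Nes by 1.30 and Emx1 by 1.06). In the intermediate progenitor list 1 of 6 fell at 48 h (Gadd45g, by 1.57), where 0.427% of all genes fell. Pdgfrb, a pericyte marker, was highest at 24 h in Fezf2GFP replicate 1 (10.03, against 6.77 to 8.83 in the other 24 h arrays), the array with the highest Apoe. Hbb-y, an embryonic globin, was at 13.78 in CtrlGFP 24 h replicate 1, an array that stands apart, at 9.96 in Fezf2GFP 24 h replicate 3 and at most 5.78 elsewhere. The part of these markers in the values of Apoe and in the changes of Srebf1, Elovl7 and Cyp7b1 was not tested, and in sorted bulk samples fewer cells of a type and less RNA per cell cannot be told apart.

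**Figure D3:**
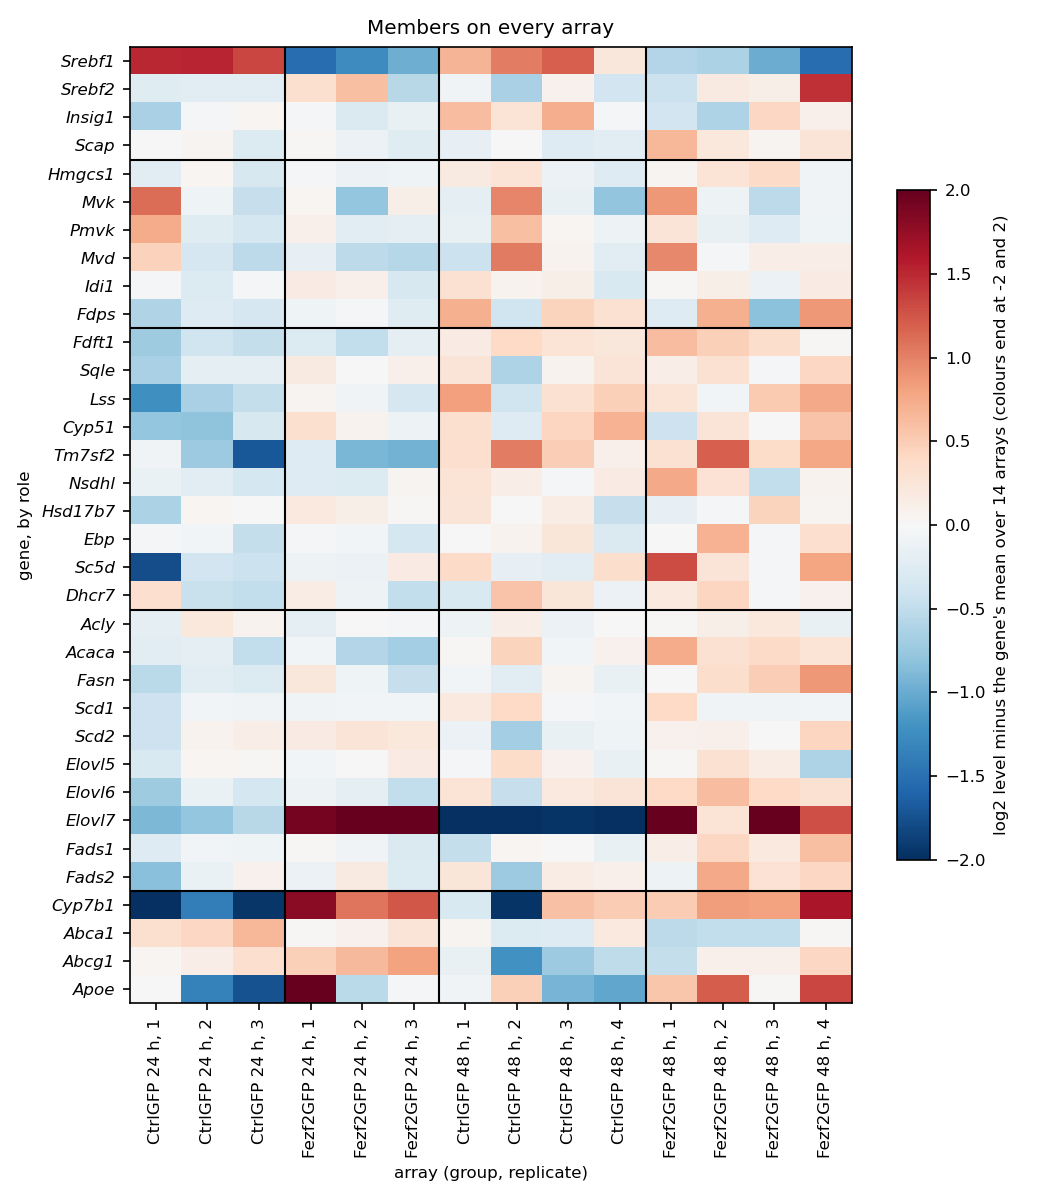
Log2 level of the 34 members (rows, by role) on the 14 arrays (columns, by group) minus each gene's mean over the arrays; red is higher, and colours end at -2 and 2. The top row, Srebf1, changes colour with the vector. Elovl7 does so the other way at both times, and Cyp7b1 at 24 h only. The rows from Fdft1 to Dhcr7 are mostly bluer at 24 h.

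Between 24 h and 48 h, Srebf1 did not pass with either vector, while genes of the steps from farnesyl diphosphate to cholesterol were 4 of the 5 members that rose with CtrlGFP and 2 of the 4 that rose with Fezf2GFP. Of the 34 members, 5 rose and 2 fell with CtrlGFP, against 5.88% and 6.69% of all genes tested. With Fezf2GFP 4 rose and 0 fell, against 6.38% and 5.67%; 2 members that did not pass, Abca1 and Abcg1, had unadjusted p under 0.05 and values below 0. The list median was 0.24 with either vector, where that of all genes tested was -0.02 and -0.01. Arrays of the times did not overlap for 11 of 34 members with CtrlGFP, against 22.7% of all genes. With Fezf2GFP this held for 9 of 34, against 26.2%. These comparisons share their arrays with those between vectors.

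Fdft1, the squalene synthase, rose with both vectors. Its levels at 24 h were 12.48, 12.79 and 12.72 with CtrlGFP and 12.92, 12.70 and 13.01 with Fezf2GFP. At 48 h they were 13.35, 13.58, 13.47 and 13.41 with CtrlGFP and 13.81, 13.66, 13.54 and 13.21 with Fezf2GFP. The times did not overlap with either vector, and the log2 fold changes were 0.79 (SE 0.16, limma adjusted p = 0.00677) and 0.67 (SE 0.16, limma adjusted p = 0.0175). Its other probe set above the dim level gave 0.66 and 0.67. The rise of Fdft1 with CtrlGFP passed in 23 of 23 alternative fits; that with Fezf2GFP passed in 20 of 23. The latter ended without Fezf2GFP 24 h replicate 2 (limma adjusted p = 0.0979), in a fit of only the groups compared (0.0529) and with the mean of its probe sets (0.0546). With that mean, which takes in 2 dim probe sets of 4, the values of Fdft1 were 0.36 and 0.33.

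Tm7sf2, a sterol reductase, also rose with both. Its levels with CtrlGFP were 8.64, 7.99 and 7.01 at 24 h and 9.05, 9.74, 9.20 and 8.82 at 48 h, and with Fezf2GFP 8.45, 7.80 and 7.77, then 9.01, 9.90, 9.08 and 9.49. All 48 h arrays of Tm7sf2 lay above all 24 h arrays, with log2 fold changes of 1.32 (SE 0.36, limma adjusted p = 0.0286) and 1.37 (SE 0.36, limma adjusted p = 0.0253). The call with CtrlGFP ended when any 1 of 5 CtrlGFP arrays was left out (24 h replicate 2 or 3, 48 h replicate 1, 2 or 3; limma adjusted p from 0.0509 to 0.126). The call with Fezf2GFP ended without 24 h replicate 2 (0.107), 24 h replicate 3 (0.113) or 48 h replicate 2 (0.0721). Over the 23 alternative fits, Tm7sf2 passed in 15 with CtrlGFP and 19 with Fezf2GFP.

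Lss and Cyp51 rose with CtrlGFP. Lss was 8.47, 9.06 and 9.22 at 24 h and 10.52, 9.31, 10.01 and 10.17 at 48 h with CtrlGFP, and the change was 1.09 on the log2 scale (SE 0.28, limma adjusted p = 0.0232). With Fezf2GFP Lss was 9.75, 9.63 and 9.37, then 9.97, 9.65, 10.22 and 10.46, and the difference of 0.50 did not pass (limma adjusted p = 0.319). For Lss, the highest 24 h array with CtrlGFP lay below the lowest 48 h array, while with Fezf2GFP the times overlapped. A second Lss probe set above the dim level gave 0.26 with CtrlGFP and 0.27 with Fezf2GFP, not tested singly. The contrast between the vectors was thus seen with the probe set used and not with the second.

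Cyp51 was 9.99, 9.95 and 10.44, then 11.07, 10.50, 11.19 and 11.45 with CtrlGFP, and the change was 0.92 on the log2 scale (SE 0.26, limma adjusted p = 0.0336). With Fezf2GFP it was 11.07, 10.82 and 10.65, then 10.35, 11.02, 10.77 and 11.32, a difference of 0.02 (limma adjusted p = 0.985). With the probe set used, the times were thus apart with CtrlGFP and overlapped with Fezf2GFP. The difference between vectors, -0.91 for Cyp51, did not pass (limma adjusted p = 0.960). Other Cyp51 probe sets above the dim level gave 1.01 and 0.04 with CtrlGFP, and 0.43 and 0.23 with Fezf2GFP, not tested singly. Lss lost its call without CtrlGFP 24 h replicate 1 or 2 or 48 h replicate 1 or 4 (limma adjusted p from 0.0515 to 0.105), and its value with the mean of its probe sets was 0.44, which passed. Cyp51 lost its call with the mean of its probe sets (limma adjusted p = 0.0510) and without CtrlGFP 24 h replicate 1 or 2 or 48 h replicate 1, 3 or 4 (0.0706 to 0.120). Over the 23 alternative fits, Lss passed in 17 and Cyp51 in 13.

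All 10 members from Fdft1 to cholesterol were above 0 between the times with CtrlGFP (median 0.58) and 9 of 10 with Fezf2GFP (median 0.35). The 6 members of the earlier steps had medians of 0.18 and 0.24, with 0 of 6 passing in limma and 0 at an unadjusted p under 0.05 with either vector. Marker levels moved between the same times: all 11 radial glia markers had values below 0 with CtrlGFP and 10 of 11 with Fezf2GFP, and 2 and 0 of them fell. Of the 6 intermediate progenitor markers, 4 fell with CtrlGFP and 3 with Fezf2GFP. Of all genes tested, 6.69% fell with CtrlGFP and 5.67% with Fezf2GFP. Olig1, of the oligodendrocyte lineage, rose by 4.54 with CtrlGFP, and its value of 2.23 with Fezf2GFP did not pass (limma adjusted p = 0.0629). In the neuron list 3 of 9 rose with each vector, where 5.88% of all genes rose with CtrlGFP and 6.38% with Fezf2GFP. The summed level of that list went from 15.85 to 16.33 up to 16.46 to 16.86 with CtrlGFP. The part of the markers in these changes was not tested.

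**Figure D4:**
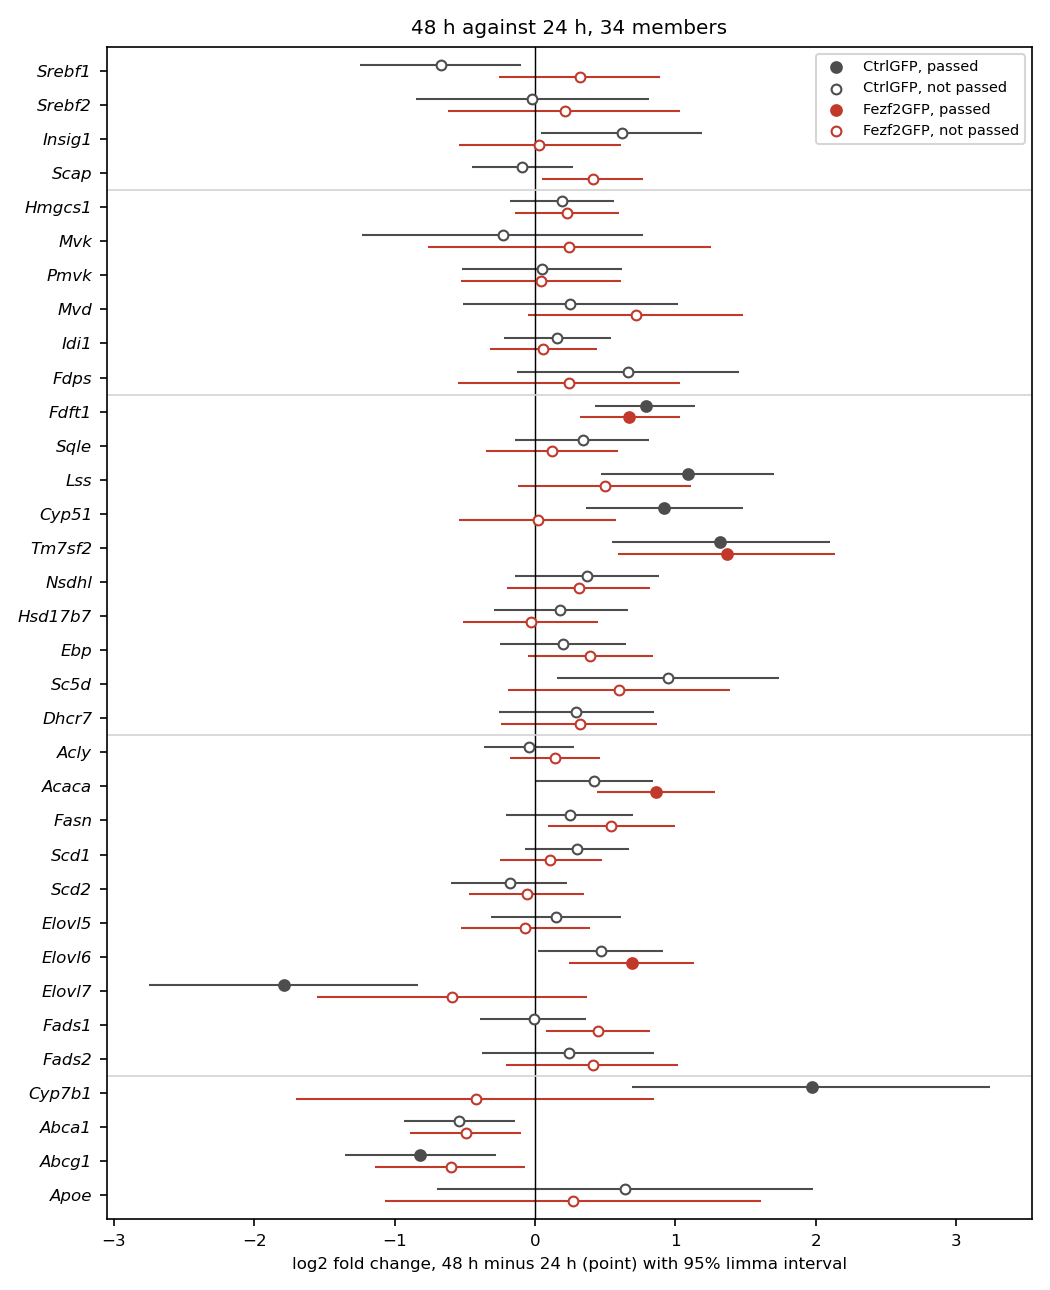
Log2 fold change of each member, 48 h minus 24 h, with CtrlGFP (grey) and Fezf2GFP (red), with 95% limma intervals; filled points passed, and grey lines part the roles. Fdft1 and Tm7sf2 passed with both vectors, Lss and Cyp51 with CtrlGFP, Acaca and Elovl6 with Fezf2GFP, and Elovl7 and Abcg1 passed below 0 with CtrlGFP.

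Among the fatty acid members, Acaca and Elovl6 rose with Fezf2GFP. Acaca was 10.02, 9.48 and 9.39 at 24 h and 10.81, 10.38, 10.45 and 10.35 at 48 h with Fezf2GFP, with no overlap and a change of 0.86 on the log2 scale (SE 0.19, limma adjusted p = 0.0112). With CtrlGFP Acaca was 9.86, 9.89 and 9.58, then 10.10, 10.52, 10.02 and 10.16, also apart, and the difference of 0.42 did not pass (limma adjusted p = 0.203). The call of Acaca ended without Fezf2GFP 24 h replicate 2 (limma adjusted p = 0.0630) or replicate 3 (0.0707), and the mean of its probe sets, 1 of 2 of them dim, gave 0.43, which passed.

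Elovl6, which lengthens palmitate, was 10.17, 10.07 and 9.78, then 10.67, 10.89, 10.66 and 10.57 with Fezf2GFP, and the change was 0.69 on the log2 scale (SE 0.21, limma adjusted p = 0.0462). With CtrlGFP it was 9.56, 10.13 and 9.91, then 10.54, 9.81, 10.47 and 10.52, at 0.47 (limma adjusted p = 0.180). The times were apart with Fezf2GFP and overlapped with CtrlGFP through 48 h replicate 2, an array that stands apart. The call of Elovl6 held in 7 of 23 alternative fits and ended, among others, without any 1 of the 7 Fezf2GFP arrays (limma adjusted p from 0.0522 to 0.201). Its second probe set above the dim level gave 0.71 with Fezf2GFP and 0.97 with CtrlGFP, not tested singly.

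Elovl7, Abcg1 and Cyp7b1 also passed with CtrlGFP. Elovl7 fell by 1.79 on the log2 scale (SE 0.44, limma adjusted p = 0.0180), but its other 5 probe sets gave -0.68 to 0.08, and the mean of all of them was -0.48 (limma adjusted p = 0.338). The fall also lost its call without CtrlGFP 24 h replicate 2 or 3 or 48 h replicate 4 (limma adjusted p from 0.0515 to 0.0650). Abcg1 was 8.33, 8.43 and 8.63 at 24 h and 8.14, 7.09, 7.57 and 7.78 at 48 h with CtrlGFP, a fall of 0.82 that held in 5 of 23 alternative fits (SE 0.25, limma adjusted p = 0.0473 in the fit of all arrays). With Fezf2GFP Abcg1 was 8.77, 8.95 and 9.10, then 7.82, 8.40, 8.40 and 8.71, at -0.60 (limma adjusted p = 0.148), and the times were apart with either vector.

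Cyp7b1 rose with CtrlGFP by 1.97 (SE 0.59, limma adjusted p = 0.0447), although its arrays overlapped between the times, and this held in 8 of 23 alternative fits. Its second probe set gave 1.91. With Fezf2GFP the value of Cyp7b1 was -0.42 (limma adjusted p = 0.739). For Abcg1 and Cyp7b1, leaving out single arrays of any of the 4 groups could end the call (limma adjusted p up to 0.149 and 0.203); without CtrlGFP 24 h replicate 1, the value of Cyp7b1 was 1.38.

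Other genes of the same pathways were listed apart from the members. Of 54 such genes, 46 were measured and 34 lay above the dim level and were tested. In limma 0 of 34 passed between vectors at 24 h and 0 at 48 h, with 2 and 8 at an unadjusted p under 0.05. Of all genes tested, 0.806% rose and 0.253% fell at 24 h, and 2.70% and 0.427% at 48 h. With shares this low, 0 of 34 says little about these genes. Among the 34 tested, the 6 sterol synthesis and SREBP processing genes had medians of 0.38 at 24 h and 0.13 at 48 h. The 16 fatty acid genes had 0.22 and 0.13, and the 12 oxysterol, LXR and sterol transport genes 0.08 and 0.31. All 12 of the last list were above 0 at 48 h, where 57.3% of all genes were. Between the times 3 of 34 rose and 0 fell with CtrlGFP, and 3 rose and 1 fell with Fezf2GFP; of all genes, 5.88% rose and 6.69% fell with CtrlGFP, and 6.38% and 5.67% with Fezf2GFP.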

How the data were processed

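The deposited table holds log2 values, made by the authors; GCRMA is the tool the submitters' processing notes name, with no version or settings. Per the labels' protocols, RNA from sorted cells was amplified by repeated rounds of in vitro transcription. The table has 45037 probe sets with values from 0.43 to 16.47 (log2), of which 34945 were paired with 1 gene symbol, 932 with several and 9160 with none. The symbols of all 34 members matched RefSeq through the Entrez ID.

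With limma 3.58.1 in R 4.3.3, lmFit and eBayes estimated group means from the 14 arrays together, with 10 residual and 2.95 prior degrees of freedom. Adjusted p-values are Benjamini-Hochberg values over 10295 genes, and "passed", "rose" and "fell" mean below 0.05. SE and 95% intervals are limma's. A summed marker level is the log2 of the sum of linear values. Functions were tested on simulated data. The 23 alternative fits changed the dim filter, normalization, choice of probe set, arrays in the fit, spread model or replicate block, or left out arrays.

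The members, role lists, pathway lists and marker lists were chosen with earlier results of these data known. Values on every array are given for members that passed in any comparison and for Srebf1, Srebf2, Insig1 and Cyp7b1; others are given by range and count, with Hmgcs1, Scap, Sc5d and Apoe described more fully after their values were seen. Pathway genes were to be named only where they passed between vectors. The number of arrays limits the precision.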

Additional observations from a re-analysis of the deposited data

Results flagged for a closer look

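In groups of 4 arrays, 6 of 68 pairs of member and group had 1 array far from the other 3 relative to the group's range; chance gives about 1 in 20. In CtrlGFP 48 h replicate 2, an array that stands apart from its group, Scd2 was at 14.15 (14.69 to 14.75 in the others), Elovl6 at 9.81 (10.47 to 10.54) and Fads2 at 8.86 (9.68 to 9.82). In Fezf2GFP 48 h replicate 1, Mvd was at 9.32 (8.33 to 8.49 in the others) and Scd1 at 5.16 (4.70 to 4.71). In Fezf2GFP 48 h replicate 4, Abca1 was at 11.10 (10.55 to 10.57). What set these arrays apart was not tested.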

How the results depend on the processing

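The counts of members that passed between vectors (3 at 24 h, 2 at 48 h, 0 for the change between times) stayed within 1.5 times under all 23 alternatives, and no call that passed changed sign under them; smaller values that did not pass could, as that of Cyp51 between vectors at 48 h (-0.37 to 0.06). The count between times moved. With CtrlGFP it was 7, and became 3 with no filter on dim probe sets, 4 with median centring, 2 in a fit of only the groups compared and 4 with the replicate block; leaving out 1 array gave 2 to 8. With Fezf2GFP it was 4, and became 2 with no filter; leaving out 1 array gave 0 to 4, with 0 without Fezf2GFP 24 h replicate 2. The cause was not tested. The labels do not say whether replicate numbers pair the samples. Between vectors, deviations of same-numbered arrays correlated at -0.00597 to 0.318 at 24 h and -0.0558 to 0.286 at 48 h. Of these pairs, 2 of 3 and 2 of 4 were over 0.1, and 1 of 3 and 1 of 4 correlated best with their own number. So few pairs cannot settle whether samples were paired. With the replicate block, the counts between vectors were 3 and 2. Of the values of calls that passed, refitted under the alternatives, 278 kept the call and 90 lost it. Signal over background limits Scd1 and, with CtrlGFP at 48 h, Elovl7.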
